A study of Mus musculus with 8 samples.

Results

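The 36 genes described here encode the enzymes of cholesterol and fatty acid synthesis and the sterol regulatory element binding protein (SREBP) machinery that controls them. They were taken as a fixed list of pathway members, by symbol, from the 46955 uniquely named entries of the expression table, and all 36 were found there. Of these, 34 passed the filter on low values used for testing (a minimum RPKM of 1, reached by 2 or more of the 8 libraries), as did 13172 genes in all. RPKM is the number of reads per kilobase of gene length, scaled to a fixed total of reads in the library. Acacb and Thrsp did not pass and are given by their values only.

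RNA was sequenced from 3 kinds of adult mouse pancreatic islet cells, purified by fluorescence-activated sorting. The mice combined Ins1-H2b-mCherry, a red nuclear reporter of an active Ins1 promoter, with Gcg-cre, a recombinase expressed in cells that use the glucagon gene, and a floxed YFP allele that Cre switches on permanently. Beta cells were sorted on the red reporter (3 libraries, 2 female and 1 male) and alpha cells on the yellow lineage label (3 libraries, 1 female and 2 male). Cells called alpha transdifferentiated carried both labels (2 libraries, 1 female and 1 male), so they made insulin reporter while descending from cells that had used Gcg-cre. Each library came from islets pooled by sex over 10 to 12 animals and cultured overnight at 5.5 mM glucose with serum before sorting, and these conditions were shared by all 3 groups. The design text also describes bitransgenic females without naming their libraries. Nothing states whether libraries of 1 group that share a title number came from separate pools, so p-values measure the spread between these libraries, which may in part be technical.

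The libraries differed in depth. Whole reads were recovered from the steps of the RPKM values, and summed to 1244243 and 2167357 in the transdifferentiated libraries against 12911992 to 21395660 in the other 6. A tested member had 2 to 6803 reads in a transdifferentiated library and 17 to 88622 in the others, and 14 of the 34 had under 50 reads in at least 1 transdifferentiated library. The sorted populations matched their labels in their defining genes: the summed RPKM of 7 beta cell markers was 148000 to 202000 in beta, 108000 to 118000 in transdifferentiated and 1050 to 1380 in alpha libraries, and that of 6 alpha cell markers was 620 to 1960, 20200 to 20300 and 176000 to 204000. Of the adipocyte markers, Adipoq, Plin1 and Cidec were at 0 in both transdifferentiated libraries, and the 4 adipocyte markers summed to at most 0.509 RPKM in any library. The 6 immune markers summed to 56.4 to 64.8 RPKM in beta, 4.59 to 18.1 in transdifferentiated and 2.16 to 2.88 in alpha libraries.

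Cholesterol is built from acetyl-CoA through mevalonate, farnesyl pyrophosphate and squalene, which is oxidised, closed into lanosterol and trimmed to cholesterol. Fatty acids are built from the same acetyl-CoA, which ATP citrate lyase releases from citrate in the cytosol, and are then elongated and desaturated. When sterols in the endoplasmic reticulum run low, the escort protein SCAP carries SREBP to the Golgi, where proteases free a fragment that switches on both sets of genes, while INSIG proteins hold SCAP back when sterols are plentiful. In beta cells, membrane cholesterol is known to affect granule formation and insulin release.

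SREBP is known to bind sterol response elements near gene starts together with the factor NF-Y, which binds CCAAT boxes. Promoters from RefSeq on GRCm38.p6 (250 bases before to 50 after the start) were listed for 29 of the 36 genes. A CCAAT box (CCAAT or its complement) lay in at least 1 listed promoter of 25 of these 29 genes, against 41.1% of the 27025 genes with an entry and 42.4% of the 9280 tested genes with one. The sterol response element in the form TCACNCCAC, on either strand, was found for 1 of 29, Hmgcs1, and for 1.44% of all genes. Other spellings were not searched, so a gene without a match is not shown to lack the element. The E-box CACGTG was found for 6 of 29 against 8.09% of all and 12.1% of tested genes, and the GC box GGGCGG for 22 of 29 against 38.2% of all and 69.8% of tested genes. Scd1, Scd2, Stard4, Fads1, Sqle, Fdft1 and Fdps had no entry. The 150 bases before the start are printed for the member with the sterol response element and for 5 members called between alpha and beta cells, picked as examples after their values were seen, in lower case with sterol response elements and CCAAT boxes of either strand in capitals. The capitals of the 2 motifs do not overlap, and a match describes letters only. The RefSeq starts of Hmgcs1, Msmo1 and Fads2 differ from the outer gene bounds of GENCODE M21, from which all gene coordinates below are taken (GRCm38).
Hmgcs1 (chr13:119690201-119690350, plus strand): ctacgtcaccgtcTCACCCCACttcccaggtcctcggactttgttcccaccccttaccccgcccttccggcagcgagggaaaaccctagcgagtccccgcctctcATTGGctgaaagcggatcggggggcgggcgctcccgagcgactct
Msmo1 (chr8:64733579-64733728, minus strand): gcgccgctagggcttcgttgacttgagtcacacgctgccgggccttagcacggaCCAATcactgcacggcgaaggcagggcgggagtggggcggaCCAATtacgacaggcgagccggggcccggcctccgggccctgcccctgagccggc
Insig2 (chr1:121332590-121332739, minus strand): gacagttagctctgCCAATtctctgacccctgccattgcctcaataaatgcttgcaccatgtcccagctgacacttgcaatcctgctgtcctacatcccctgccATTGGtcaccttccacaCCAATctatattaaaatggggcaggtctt
Elovl5 (chr9:77917215-77917364, plus strand): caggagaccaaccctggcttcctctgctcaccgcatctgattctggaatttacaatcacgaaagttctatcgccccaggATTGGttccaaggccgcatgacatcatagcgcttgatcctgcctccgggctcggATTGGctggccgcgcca
Acly (chr11:100528001-100528150, minus strand): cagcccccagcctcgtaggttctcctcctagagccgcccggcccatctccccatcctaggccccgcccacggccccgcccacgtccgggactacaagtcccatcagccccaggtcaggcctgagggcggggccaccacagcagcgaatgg
Fads2 (chr19:10101504-10101653, minus strand): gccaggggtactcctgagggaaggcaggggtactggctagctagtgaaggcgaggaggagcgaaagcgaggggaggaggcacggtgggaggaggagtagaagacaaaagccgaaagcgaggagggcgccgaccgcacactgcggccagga
Within these stretches Insig2 held 3 CCAAT boxes, Msmo1 and Elovl5 held 2 each, and Hmgcs1 held 1 beside its sterol response element. Acly and Fads2 held 0 of both motifs in these stretches, though Acly had a CCAAT box elsewhere in a listed promoter.

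Levels, which RPKM makes comparable between genes of different length, spanned a wide range. Acly, the gene of ATP citrate lyase (chromosome 11, 100476353 to 100528000), was the highest member in all 8 libraries and made up 53.4% to 55.1% of the members' summed RPKM in beta cells. Its share was 53.6% and 56.3% in the transdifferentiated and 28.9% to 33.8% in the alpha libraries. In beta cells Sqle followed at 76.9 ± 11.6 RPKM (SD, n = 3) and Scd2 at 70.2 ± 12.3, which did not differ beyond their spread, and then Elovl5 at 50.9 ± 2.04. In alpha cells Scd2 (59.6 ± 4.75), Srebf2 (45.7 ± 3.24) and Hmgcs1 (40.1 ± 2.16) came next after Acly. At the other end, Acacb stayed at 0.0834 to 0.295 RPKM in every library. Thrsp, a lipogenic regulator, was at 0.49, 0.491 and 1.27 RPKM in beta libraries, from 20 to 40 reads. It was at 0.367 and 0 RPKM in the transdifferentiated libraries (1 and 0 reads) and at 0.106, 0.136 and 0.0324 in the alpha ones.

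**Figure D1:**
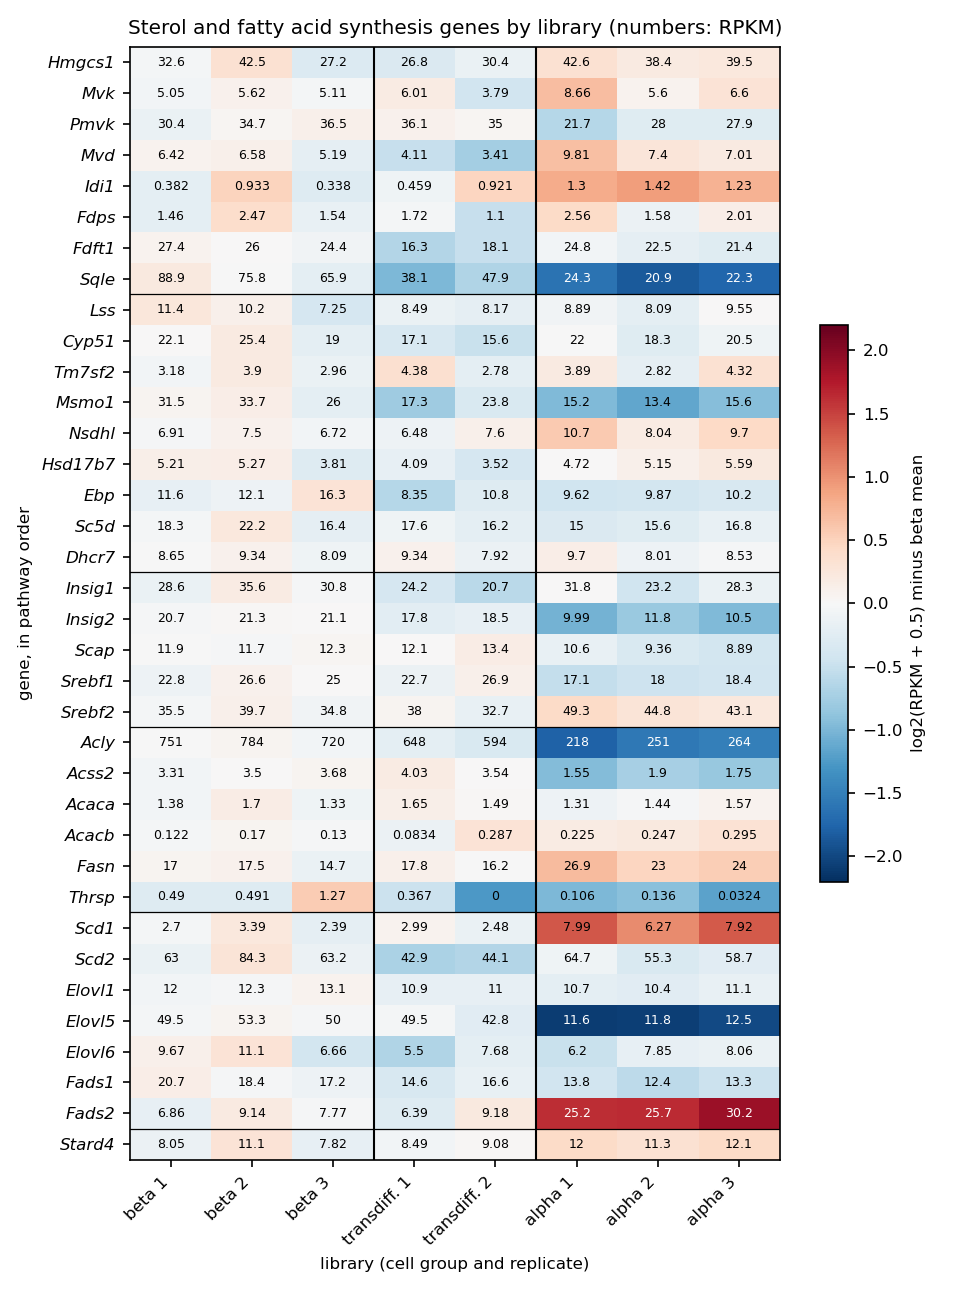
RPKM of all 36 genes (rows, in pathway order, lines between steps) in the 8 libraries (columns), printed in each cell, with colour giving log2(RPKM + 0.5) minus the mean of the 3 beta libraries. Acly, Sqle and Elovl5 are lower and Fads2 and Scd1 higher in alpha than in beta libraries, while Fdft1 and Scd2 are lowest in the 2 transdifferentiated columns.

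Alpha and beta cells set the frame for the third population. Differences were tested with limma on log2(RPKM + 0.5), with cell group and sex as terms and Benjamini-Hochberg adjustment over all 13172 genes, and a gene was called at an adjusted p under 0.05. Of the 34 tested members, 16 were called (6 higher and 10 lower in alpha cells) beside 43.6% of all genes (16.9% higher and 26.7% lower), so the members' share of 47.1% was near the background. The count fell to 9 without beta replicate 3 (26.0% of all genes) and to 9 without alpha replicate 3 (23.6% of all genes). The members' median log2 fold change was -0.11 beside -0.05 over all genes. Markers of other islet cells also differed between these sorts: the 3 delta markers summed to 1370 to 3200 RPKM in alpha and 312 to 890 in beta libraries, and the 3 PP and epsilon markers to 7960 to 13000 and 590 to 1270. Together with the immune markers above, their part in the results was not tested. The members did not move as a block, and enzymes of 1 pathway went opposite ways.

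Elovl5, an elongase of polyunsaturated fatty acids (chromosome 9, 77917364 to 77984519), was at 49.5, 53.3 and 50 RPKM in beta and 11.6, 11.8 and 12.5 RPKM in alpha libraries. The groups were far apart (log2 fold change -2.05, SE 0.09, adjusted p = 8.14e-06). Fads2, the delta-6 desaturase gene of the same pathway (chromosome 19, 10062765 to 10101746), stood the other way, at 6.86, 9.14 and 7.77 RPKM in beta and 25.2, 25.7 and 30.2 in alpha libraries. Every alpha library lay above every beta library (log2 fold change 1.79, SE 0.14, adjusted p = 0.000104). Its neighbour Fads1, the delta-5 desaturase gene (chromosome 19, 10182888 to 10196877), was lower in alpha cells, at 13.8, 12.4 and 13.3 against 20.7, 18.4 and 17.2 RPKM (log2 fold change -0.45, SE 0.09, adjusted p = 0.00795). With quantile normalization this call was lost (adjusted p = 0.0957), and likewise without alpha replicate 3. The ratio of Fads2 to Fads1 within a library, which library scaling cannot change, was 0.332 to 0.497 in beta and 1.83 to 2.27 in alpha libraries.

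Stearoyl-CoA desaturases, which make monounsaturated fatty acids, also separated the references by isoform. Scd1 (chromosome 19, 44394455 to 44407879) was at 7.99, 6.27 and 7.92 RPKM in alpha and 2.7, 3.39 and 2.39 RPKM in beta libraries, with no overlap (log2 fold change 1.28, SE 0.17, adjusted p = 0.001). Scd2 (chromosome 19, 44293674 to 44306864) was the main isoform in both, at 64.7, 55.3 and 58.7 in alpha against 63, 84.3 and 63.2 RPKM in beta libraries, and these ranges overlapped (log2 fold change -0.20, adjusted p = 0.261). The ratio of Scd2 to Scd1 was 7.41 to 8.82 in alpha and 23.3 to 26.4 in beta libraries. Scd1 and Scd2 share 4.56% and 3.97% of their 50-base stretches with other annotated transcripts, mostly each other and their relatives, so a small part of their reads may not be told apart. Elovl1 and Elovl6, elongases of saturated chains, did not pass (log2 fold changes -0.21 and -0.13, adjusted p = 0.0807 and 0.466).

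Both genes of acetyl-CoA supply were lower in alpha cells and the fatty acid synthase gene was higher. Acly was at 218, 251 and 264 RPKM in alpha against 751, 784 and 720 RPKM in beta libraries, 32.5% of the beta mean (log2 fold change -1.60, SE 0.11, adjusted p = 5.08e-05). Acss2, which makes acetyl-CoA from acetate (chromosome 2, 155517948 to 155585724), was at 1.55, 1.9 and 1.75 against 3.31, 3.5 and 3.68 RPKM (log2 fold change -0.86, SE 0.13, adjusted p = 0.00218). Both genes showed groups without overlap. Fasn, the fatty acid synthase gene (chromosome 11, 120805846 to 120824547), rose to 26.9, 23 and 24 RPKM in alpha from 17, 17.5 and 14.7 RPKM in beta libraries (log2 fold change 0.58, SE 0.11, adjusted p = 0.00536). Leaving out beta replicate 3 gave an adjusted p of 0.0508. Acaca, the acetyl-CoA carboxylase gene between them, was at 1.31 to 1.57 and 1.33 to 1.7 RPKM (adjusted p = 0.987). It shares 30.4% of its 50-base stretches with other transcripts, and its level is uncertain for that reason.

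Among the sterol enzymes, 3 were lower, 2 were higher and 12 did not pass. Sqle, squalene epoxidase (chromosome 15, 59315077 to 59331192), was at 24.3, 20.9 and 22.3 RPKM in alpha against 88.9, 75.8 and 65.9 in beta libraries (log2 fold change -1.67, SE 0.12, adjusted p = 6.69e-05). Msmo1, a C4-methyl sterol oxidase (chromosome 8, 64718139 to 64733792), was at 15.2, 13.4 and 15.6 against 31.5, 33.7 and 26 RPKM (log2 fold change -0.92, SE 0.10, adjusted p = 0.000491). These 2 enzymes each had alpha levels below 50% of the beta mean, at 29.3% and 48.5%. Smaller differences that passed were those of Pmvk (log2 fold change -0.39), Nsdhl (0.44) and Idi1 (0.93), and that of the sterol carrier gene Stard4 (0.43). They missed the threshold in 10 of 19, 7 of 18, 8 of 18 and 7 of 19 alternatives. Idi1 stayed at 0.338 to 1.42 RPKM in the 6 libraries and shares 25.3% of its 50-base stretches with other transcripts. The first and last enzymes of the list gave no call, with Hmgcs1 at a log2 fold change of 0.32 (adjusted p = 0.112) and Dhcr7 at -0.00 (95% interval -0.29 to 0.28).

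The regulators also differed by isoform. Insig2 (chromosome 1, 121304353 to 121332589) was at 9.99, 11.8 and 10.5 RPKM in alpha against 20.7, 21.3 and 21.1 in beta libraries (log2 fold change -0.94, SE 0.09, adjusted p = 0.000263). Insig1, itself a known SREBP target, was at 31.8, 23.2 and 28.3 against 28.6, 35.6 and 30.8 RPKM and did not pass (log2 fold change -0.20, adjusted p = 0.311). Alpha libraries thus held 1.97 to 3.18 times as much Insig1 as Insig2, and beta libraries 1.38 to 1.67 times. Srebf1, which mainly drives fatty acid genes (chromosome 11, 60199089 to 60222581), was at 17.1, 18 and 18.4 in alpha against 22.8, 26.6 and 25 RPKM in beta libraries (log2 fold change -0.43, SE 0.10, adjusted p = 0.0111). Quantile normalization ended this call (adjusted p = 0.15), as did leaving out beta replicate 3 or alpha replicate 3. Srebf2, which mainly drives sterol genes (chromosome 15, 82147181 to 82205379), was at 49.3, 44.8 and 43.1 against 35.5, 39.7 and 34.8 RPKM, without overlap but not called (log2 fold change 0.29, SE 0.10, adjusted p = 0.0509). It was called in 9 of 19 alternatives. The ratio of Srebf2 to Srebf1 was 2.34 to 2.88 in alpha and 1.39 to 1.55 in beta libraries. Scap was lower by a log2 fold change of -0.32 (adjusted p = 0.0385), a call lost in 9 of 19 alternatives.

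Over all genes, 38.8% of calls between alpha and beta cells were higher in alpha cells, against 47.8% under median-ratio scaling and 50% under quantile normalization. The members' calls were 7 higher and 9 lower under median-ratio scaling, beside 20.9% and 22.8% of all genes. Under quantile normalization they were 7 higher and 6 lower, beside 20.8% in each direction. The directions of Elovl5, Fads2, Scd1, Acly, Acss2, Sqle, Msmo1 and Insig2 and their calls held in each alternative that tested them.

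**Figure D2:**
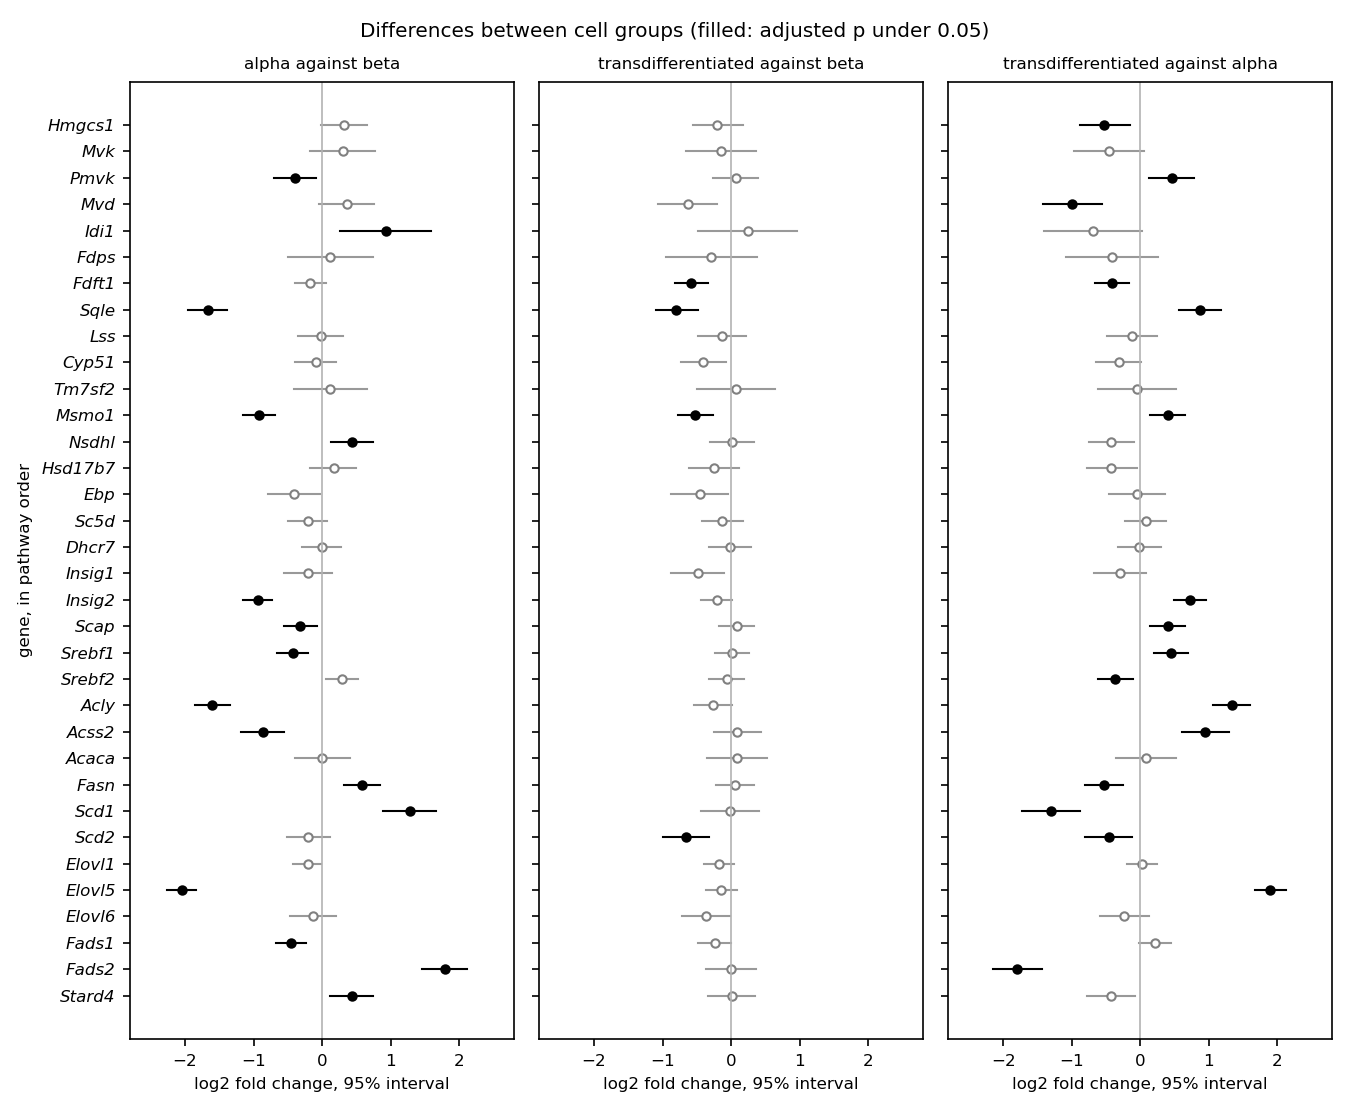
Log2 fold changes with 95% intervals (x axis) of the 34 tested genes (y axis, in pathway order) in the 3 contrasts between cell groups. Filled points passed an adjusted p of 0.05: 16 for alpha against beta, 4 for transdifferentiated against beta, each below 0, and 17 for transdifferentiated against alpha.

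The comparison of transdifferentiated with beta cells sets cells that carried both labels beside cells sorted on the red reporter. For Fads2, Scd1 and Elovl5, which separate alpha from beta cells by over 1 on the log2 scale, the transdifferentiated means were nearer the beta than the alpha mean. Fads2 was at 6.39 and 9.18 RPKM, 98.3% of the beta mean (log2 fold change 0.00, 95% interval -0.36 to 0.36). Scd1 was at 2.99 and 2.48 RPKM, 96.7% of the beta mean (-0.02, interval -0.44 to 0.41). Elovl5 was at 49.5 and 42.8 RPKM, 90.7% of the beta mean (-0.14, interval -0.37 to 0.08). Both Scd1 values lay within the beta range, the Fads2 values lay just outside it on either side, and 1 of the Elovl5 values lay below it. The intervals bound these differences without showing that they are 0.

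Sqle and Msmo1, which also separate the references, did not follow these and are given below. Acss2 (108% of the beta mean), Fasn (104%), Srebf1 (100%), Scap (107%) and Srebf2 (96.5%) were likewise not called. Acly, at 648 and 594 RPKM, lay below each beta library at 82.6% of the beta mean (log2 fold change -0.26, SE 0.12, adjusted p = 0.17). Insig2, at 17.8 and 18.5 RPKM, also lay below each beta library and did not pass (-0.21, SE 0.10, adjusted p = 0.194), though it passed with median-ratio scaling.

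Of the 34 members, 4 were called lower than in beta cells and 0 higher, beside 12.0% of all genes called in either direction, 2.90% lower and 9.10% higher. The 4 were the sterol enzyme genes Fdft1, Sqle and Msmo1, and the desaturase gene Scd2. Sqle was at 38.1 and 47.9 RPKM (263 and 576 reads), 55.9% of the beta mean, and both libraries lay below the lowest beta library at 65.9 RPKM (log2 fold change -0.80, SE 0.13, adjusted p = 0.015). Fdft1, squalene synthase, the enzyme just before Sqle (chromosome 14, 63145150 to 63179578), was at 16.3 and 18.1 RPKM against 27.4, 26 and 24.4 RPKM (log2 fold change -0.58, SE 0.11, adjusted p = 0.0201). Squalene synthase commits farnesyl pyrophosphate to the sterol branch, and Sqle oxidises its product. Msmo1 was at 17.3 and 23.8 RPKM against 31.5, 33.7 and 26 RPKM (log2 fold change -0.52, SE 0.11, adjusted p = 0.0298). Scd2 was at 42.9 and 44.1 RPKM against 63, 84.3 and 63.2 RPKM (log2 fold change -0.66, SE 0.14, adjusted p = 0.0315).

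Other SREBP targets leaned the same way without a call. Mvd, mevalonate pyrophosphate decarboxylase, was at 4.11 and 3.41 RPKM (9 and 13 reads) against 6.42, 6.58 and 5.19 RPKM (log2 fold change -0.63, SE 0.18, adjusted p = 0.0653). Cyp51, lanosterol demethylase, was at 17.1 and 15.6 against 22.1, 25.4 and 19 RPKM (-0.41, adjusted p = 0.0956). Insig1 was at 24.2 and 20.7 against 28.6, 35.6 and 30.8 RPKM (-0.49, adjusted p = 0.0906). In all, both transdifferentiated libraries lay below every beta library for 12 of 34 members (15.3% of all genes) and above every beta library for 0 (31.0% of all genes). Fold changes were negative for 23 of the 34, among them 6 of 8 mevalonate and squalene genes and 7 of 9 sterol ring genes, beside 40.3% of all genes. The median was -0.15 for the members and 0.09 for all genes.

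The 4 calls rest on few libraries. None of the 4 was called without beta replicate 3, without transdifferentiated replicate 1, or when beta and transdifferentiated libraries were fitted alone, where limma called 0 of 13172 genes and 7 members had an unadjusted p under 0.05. Without beta replicate 1 Sqle alone was called, without beta replicate 2 Sqle and Scd2, and without alpha replicate 2 Fdft1 and Sqle. These fits called 3.82%, 6.01% and 6.50% of all genes, and the fit without beta replicate 3 called 1.78%. Sqle was called in 16 of 19 alternatives (adjusted p up to 0.0769), against 12 for Fdft1, 8 for Msmo1 and 8 for Scd2, and limma voom on recovered reads called Sqle and Scd2. All 4 fold changes stayed negative in each alternative. Median-ratio scaling moved the median of all genes from 0.09 to -0.06 and called 8 members lower, beside 7.12% of all genes. Quantile normalization moved that median to -0.04 and called 3 members lower, beside 3.89% of all genes. Relative to the median of all genes the members' median was -0.24 as deposited, -0.25 after median-ratio scaling and -0.23 after quantile normalization. Over all genes 75.8% of calls were higher in transdifferentiated cells as deposited, 47.3% under median-ratio scaling and 55.2% under quantile normalization.

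Several measured features moved with this comparison. The transdifferentiated libraries were the shallowest, and their titles lack the letter b found in 2 beta and 2 alpha titles, those of replicates 2 and 3. No label says what the letter means. With that letter as a term 4 members were called lower, Mvd, Fdft1, Sqle and Msmo1. With sex and letter as 4 blocks, 7 were called lower, these 4 and Cyp51, Insig1 and Scd2. In either direction these 2 fits called 15.5% and 14.8% of all genes. In the only beta library without the letter, replicate 1, Sqle was at 88.9 and Scd2 at 63 RPKM, above both transdifferentiated libraries. The immune markers, all 4 tested ones called lower, and the delta and PP cell markers also differed from beta cells: the 3 delta markers summed to 2960 to 3090 against 312 to 890 RPKM, and the 3 PP and epsilon markers to 8250 to 11400 against 590 to 1270 RPKM. All 6 alpha markers were called higher than in beta cells, and summed to 20200 to 20300 against 620 to 1960 RPKM. The part of all these markers in the result was not tested. In such bulk samples fewer cells of a type and less RNA per cell cannot be told apart. Fdft1 overlaps Ctsb on the opposite strand over 18.3% of its annotated exon bases, and the library kit does not mark strand. It shares 26.5% of its 50-base stretches with other transcripts, of Ctsb and Gm6781. Ctsb was at 146 and 210 RPKM against 256 to 259 in beta libraries (log2 fold change -0.53, adjusted p = 0.0874). The gene length behind the Fdft1 values is 2860 bases against 4227 annotated, so whether the overlap was counted is not known.

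**Figure D3:**
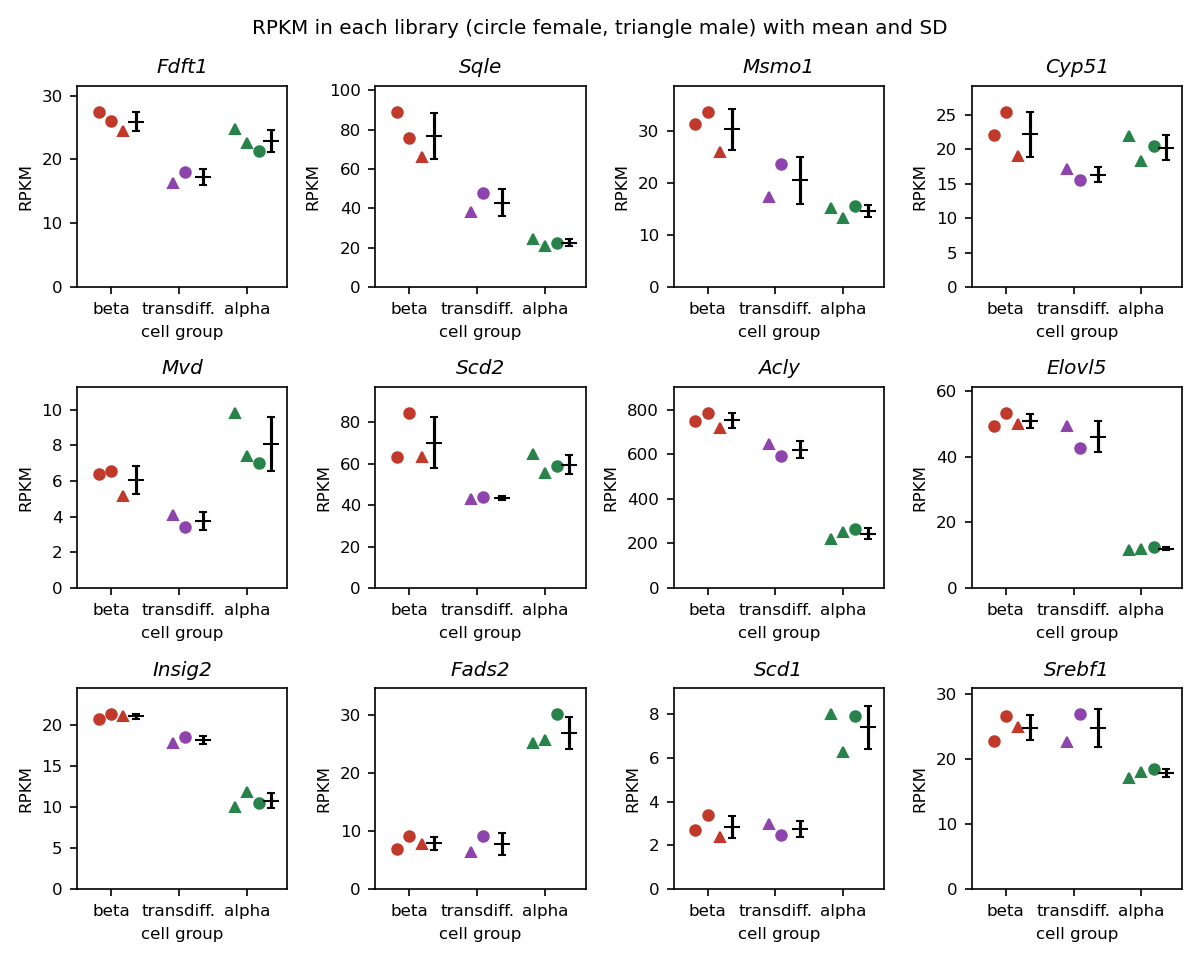
RPKM (y axes, from 0) of 12 genes in each library by cell group (x axes), circles for female and triangles for male pools, with the mean and SD to the right of each group. Fdft1, Cyp51, Mvd and Scd2 are lowest in the 2 transdifferentiated libraries, Sqle and Msmo1 lie between the other groups, and Acly, Elovl5, Insig2, Fads2, Scd1 and Srebf1 lie nearer the beta than the alpha level.

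The comparison with alpha cells sets the same cells beside the type that their lineage label marks. Of the 34 members 17 were called, 9 higher and 8 lower, beside 29.9% of all genes (23.2% higher and 6.67% lower). Both comparisons of the transdifferentiated cells use the same 2 libraries, so their values are given side by side and not as separate evidence.

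The members that rose were Elovl5 (log2 fold change 1.90, SE 0.10, adjusted p = 4.41e-05), Acly (1.34, adjusted p = 0.000337), Acss2 (0.95), Sqle (0.88), Insig2 (0.73), Pmvk (0.46), Srebf1 (0.45), Msmo1 (0.40) and Scap (0.40). Sqle stood at 191% of the alpha mean and at 55.9% of the beta mean, and Msmo1 at 139% and 67.6%. Elovl5 at 386% and Acly at 254% of the alpha mean were the largest rises.

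The members that fell included Fads2 (log2 fold change -1.79, SE 0.15, adjusted p = 0.000309) and Scd1 (-1.30, SE 0.18, adjusted p = 0.00238), at 28.8% and 37.0% of their alpha means. The others were Mvd (-0.99, adjusted p = 0.00737), Fasn (-0.52, adjusted p = 0.016), Hmgcs1 (-0.52, adjusted p = 0.0443), Scd2 (-0.46, adjusted p = 0.05, just under the threshold), Fdft1 (-0.41, adjusted p = 0.0253) and Srebf2 (-0.36, adjusted p = 0.0461). Srebf2, at 38 and 32.7 RPKM, lay below each alpha library. Hmgcs1, at 26.8 and 30.4 RPKM against 42.6, 38.4 and 39.5, did so too. Hmgcs1 shares 11.6% of its 50-base stretches with other transcripts, chiefly Gm48342 on the opposite strand.

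Fdft1 and Scd2 were called lower than both references, 2 of 34 members beside 0.554% of all genes. Their calls against alpha cells were missed in 7 and 14 of 19 alternatives. Limma voom on recovered reads called neither gene lower than in alpha cells, and did not call Fdft1 against beta cells. By values alone, both transdifferentiated libraries lay below all 6 reference libraries for 4 members, Mvd, Fdft1, Cyp51 and Scd2, beside 2.43% of all genes. They lay above all 6 for 0 members, beside 13.1% of all genes. At most 149 reads stood behind a transdifferentiated value of Mvd, Fdft1 and Cyp51, and 291 and 521 behind those of Scd2.

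Of the 17 calls, those of Elovl5, Acly, Acss2, Sqle, Insig2, Fads2 and Scd1 held in each alternative that tested them. Limma voom on recovered reads called 9 members, 6 higher and 3 lower (Fasn, Scd1 and Fads2), beside 17.2% of all genes. A fit of alpha and transdifferentiated libraries alone called 5 higher and 4 lower, also beside 17.2%. Leaving out 1 beta or alpha library gave 11 to 13, beside 18.5% to 26.9% of all genes. The count was 11 without beta replicate 3, alpha replicate 2 or alpha replicate 3. Median-ratio scaling called 5 higher and 12 lower, beside 12.0% and 12.1% of all genes. Quantile normalization called 5 higher and 13 lower, beside 13.3% of all genes in each direction. The share of higher calls over all genes went from 77.6% to 49.7% and 49.9%. The median of all genes moved from 0.17 to -0.05 under both scalings. The lower calls of Mvd, Fdft1, Srebf2, Fasn, Scd1, Scd2, Fads2 and Hmgcs1 were made under both scalings, and the higher calls of Pmvk, Srebf1, Msmo1 and Scap under neither. Among the lower calls, Srebf2 and Scd2 were each missed in 14 of 19 alternatives. Hmgcs1 was missed in 12 of 19, Fdft1 in 7, Fasn in 2, and Mvd in 1 of 18. Among the higher calls, Pmvk and Msmo1 were each missed in 14 of 19, Scap in 13 and Srebf1 in 5.

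Ratios of related genes, which do not depend on library scaling, placed the transdifferentiated cells near beta cells for 3 of 4 pairs. Fads2 to Fads1 was 0.437 and 0.554, Srebf2 to Srebf1 was 1.68 and 1.22, and Insig1 to Insig2 was 1.36 and 1.12. Each of these pairs lay below every alpha library. Scd2 to Scd1 was 14.3 and 17.8, between the alpha range of 7.41 to 8.82 and the beta range of 23.3 to 26.4.

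**Figure D4:**
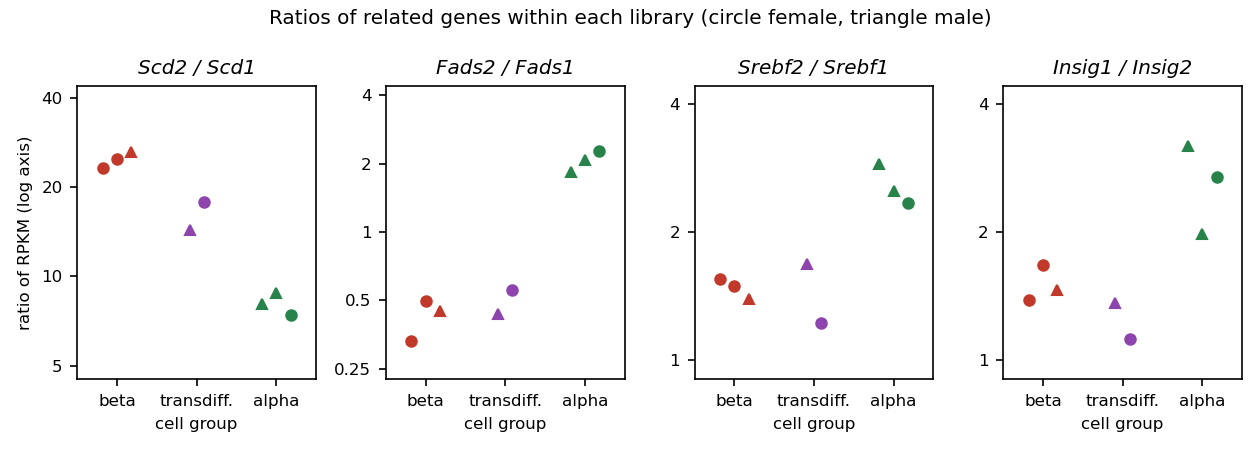
Ratio of RPKM (log y axes) of 4 pairs of related genes in each library by cell group (x axes), circles for female and triangles for male pools. Fads2 to Fads1 is 0.332 to 0.554 in beta and transdifferentiated libraries and 1.83 to 2.27 in alpha libraries, and Scd2 to Scd1 in transdifferentiated libraries lies between the other groups.

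Between the sexes, 0 of the 34 members were called by limma in 4 female against 4 male libraries, with cell group as the other term, beside 0.0456% of all genes (0.00759% higher and 0.0380% lower in females). Their log2 fold changes, female against male, ran from -0.17 to 0.41, and limma voom also called 0. An unadjusted p under 0.05 was reached by 2 of them. A separate limma fit took the alpha to beta difference in each sex and tested the gap. It called 0 members and 0% of all genes, with 1 member at an unadjusted p under 0.05 and 2 residual degrees of freedom.

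Genes around these pathways, from lists set beside the members, gave a wider view. Of 24 tested genes of sterol uptake, storage and efflux, 3 were higher and 12 lower in alpha than in beta cells, beside 16.9% higher and 26.7% lower over all genes. Nr1h3, a liver X receptor gene that senses oxysterols, was lower (log2 fold change -2.41), as was the lipoprotein receptor gene Vldlr (-2.03), while Lrp1, another receptor of that family, was higher (2.27). Against beta cells, 2 of the 24 rose and 2 fell in transdifferentiated cells, beside 9.10% and 2.90% of all genes. Lrp1 rose by 1.26 and Soat1, which esterifies cholesterol for storage, by 0.78 (adjusted p = 0.0172), to 12.0 ± 1.34 RPKM (SD, n = 2) from 6.76 ± 0.677 (SD, n = 3). Nr1h3 fell by 1.43 on the log2 scale (adjusted p = 0.0172, missed in 6 of 18 alternatives). Nr1h3 is also expressed in macrophages, and the immune markers given above moved with it, whose part was not tested. Against alpha cells 9 rose and 2 fell, beside 23.2% and 6.67% of all genes, led by Vldlr (2.02), Soat1 (1.66) and the cholesterol exporter gene Abca1 (1.40). Under median-ratio scaling 5 of the 24 rose and 2 fell against alpha cells, beside 12.0% and 12.1% of all genes. Against beta cells 2 rose and 5 fell under that scaling, beside 6.39% and 7.12%. Quantile normalization gave 5 and 2 against alpha cells, beside 13.3% in each direction. Against beta cells it gave 2 and 2, beside 4.79% higher and 3.89% lower. Soat1 was called higher than in both references, a call against beta cells missed in 5 of 19 alternatives.

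Of 31 tested genes of lipid use and storage, 2 were higher and 14 lower in alpha than in beta cells, beside the same 16.9% and 26.7% of all genes, led by Pparg (log2 fold change -3.29), Mlxipl (-3.14) and Elovl4 (-2.57). Mlxipl encodes a glucose-responsive activator of lipogenic genes. Against beta cells 5 rose and 2 fell in transdifferentiated cells, beside 9.10% and 2.90%. Mlxipl rose by 1.63 (SE 0.31, adjusted p = 0.0231, missed in 4 of 19 alternatives), to 70.4 ± 21.5 RPKM (SD, n = 2) from 22.2 ± 7.63 (SD, n = 3), and Dgat1, an enzyme of triglyceride assembly, by 0.63 (adjusted p = 0.0431, missed in 12 of 18 alternatives). Pparg fell by 0.85 (adjusted p = 0.0352, missed in 11 of 18) and the acyl-CoA synthetase gene Acsl5 by 0.76 (adjusted p = 0.00718, missed in 3 of 19). Against alpha cells 16 rose and 2 fell, beside 23.2% and 6.67%, led by Mlxipl (4.77), Elovl4 (2.49) and Pparg (2.44). Median-ratio scaling left 7 higher and 4 lower against alpha cells and 1 higher and 4 lower against beta cells. Quantile normalization left 7 and 3, and 2 and 2. The shares of all genes under each scaling are those given for the sterol list. Medians of the 2 lists against beta cells were -0.08 and -0.01, beside -0.15 for the synthesis genes and 0.09 for all genes.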

How the data were processed

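The authors deposited 1 table of RPKM values per gene and library. The tools named in the submitters' processing notes are STAR 2.5, edgeR 3.14.0 and featureCounts, with build GRCm38.p4. The TruSeq RNA kit v2 of the labels' protocols leaves strand unmarked. The sources used here do not name the annotation, filters or strand setting. Of 46959 entries, 4 with repeated names were left out and 27 had names turned into dates. With exon lengths from GENCODE M21 (GRCm38), 78.5% of expressed genes with a length (19907 of 25349) came out as whole reads in each of the 8 libraries (tolerance 0.01 read). Lengths of another 6879 genes were solved from their own steps, and 11 of the 36 members are among these. The library size implied by the RPKM, divided by the sum of these reads, was 1.0 in each library.

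Differences were tested in R 4.3.3 with limma 3.58.1, by lmFit and trended eBayes, on log2(RPKM + 0.5), so fold changes of low genes are understated. Each contrast came from 1 fit over the 8 libraries whose terms were sex and cell group, leaving 4 residual degrees of freedom. The fit was tested on simulated reads with known changes. Per-library values are printed for called members, up to 12 per contrast by fold change, and for Srebf1, Srebf2, Insig1 and Insig2. The members, lists and tests were chosen with earlier results of these data known. Other genes were named by fold change among those called in their list, at most 4 a list and contrast, and Ctsb for its overlap with Fdft1, after its values were seen. The acinar, duct, endothelial and Schwann marker lists gave no calls between transdifferentiated and beta cells. Between alpha and beta cells the duct list gave 1 higher (Muc1) and 1 lower call (Krt7), and the acinar, endothelial and Schwann lists none. Krt7 was also higher in transdifferentiated than in alpha cells. Acinar markers summed to 43.3 to 1310 RPKM in beta, 129 to 346 in transdifferentiated and 13.4 to 1120 in alpha libraries. Their part in the results was not tested. The fibroblast and adipocyte lists had 0 tested genes. Alternatives covered the pseudocount, filter, scaling, model terms, read-based limma voom and each library left out. Shared 50-base stretches were counted in GENCODE M21 transcripts. Coordinates are those of GENCODE M21, and promoters are from RefSeq, GRCm38.p6.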

Additional observations from a re-analysis of the deposited data

How the results depend on the processing

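Percentages in brackets are the share called of all genes that a fit tested. Members called between alpha and beta cells numbered 16 (43.6%), and 9 to 15 with 1 beta or alpha library left out (23.6% to 39.9%). Against alpha cells the 17 calls of transdifferentiated cells (29.9%) became 9 in the fit of the 2 groups alone (17.2%). They also became 9 with limma voom on recovered reads (17.2%). They became 7 with limma voom on genes of at least 50 reads in each transdifferentiated library (20%). That fit tested 20 members and was chosen after seeing the data. With 1 beta or alpha library left out the calls against alpha cells were 11 to 13 (18.5% to 26.9%). Against beta cells the 4 calls (12.0%) became 2 without a filter on low values (3.27%) and 8 with median-ratio scaling (13.5%). They became 0 in the fit of the 2 groups alone (0%), 2 with limma voom (5.13%) and 1 with limma voom at 50 reads (1.79%). With 4 blocks of sex and letter b they became 7 (14.8%). The block fit was also chosen after seeing the data and had 2 residual degrees of freedom. With 1 beta or alpha library left out the calls against beta cells were 0 to 4 (1.78% to 9.41%). Fits without 1 transdifferentiated library assumed that the lone one left varied like the other groups. The cause of each change was not tested. Between the sexes limma called 0 members in each alternative, where 2 had an unadjusted p under 0.05 with all libraries and limma voom called 0. In the contrasts where it was called, no member or named gene of the 2 other pathway lists changed direction in any alternative. The duct markers Muc1 and Krt7 were not followed in the alternatives. Differences that were not called did change sign, such as those from beta cells of Srebf1 (-0.16 to 0.11) and Vldlr (-0.17 to 0.33) in transdifferentiated cells. Libraries could not be paired by replicate number, because the labels give the groups no shared ones. Blocking by sex and letter b was possible. It called 13 members between alpha and beta cells (42.6%) and 13 between transdifferentiated and alpha cells (24.0%). Nothing states that libraries of 1 block share animals. Counting limits the precision of low members in the transdifferentiated libraries, where a single read on a 2 kb gene equals 0.402 and 0.231 RPKM, beside 0.023 to 0.039 elsewhere.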
